A study of Homo sapiens with 4 samples.

Results

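The genes described are 10 transcription factors of the AP-1 and EGR immediate early group: JUN, JUNB, JUND, FOS, FOSB, FOSL2, ATF3, EGR1, EGR2 and EGR3. They were taken by name from a deposited table of 37247 gene rows, and all 10 were found. RNA was sequenced from AMO1 cells, an established wild-type plasmacytoma cell line that serves as a myeloma model, in 4 libraries. In 2 libraries the cells had been kept for 6 h with DMSO, the vehicle, at 0.10%, and in the other 2 they had been kept for 6 h with periplocin, whose dose the labels give as 0.2 mM, a high one for a drug of this class, and the unit could not be checked here. Periplocin is a plant cardiac glycoside, a class of steroid that inhibits the Na/K-ATPase of the cell membrane, and the series asks how such drugs lower c-Myc. Whether the replicate libraries stem from separate cultures is not stated in the labels, so each p-value reflects the spread between these samples alone, which may be technical.

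AP-1 is a family of dimers joined by a leucine zipper. A JUN protein pairs with itself, with a FOS protein or with an ATF protein, and the pair binds a short palindrome in DNA. The EGR proteins bind a GC-rich site through zinc fingers. Many genes of both groups, though not all, are known as immediate early genes. Growth factors, calcium and stress switch such genes on through kinases without new protein synthesis, and their mRNAs are short-lived. In B lineage cells the EGR factors are induced by the antigen receptor, and JUNB is known to be active in myeloma cells.

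The starts of some of these genes are shown because they can carry sites through which immediate early signals act. The sequences are RefSeq promoter windows on GRCh38.p14, from 250 bases before the annotated start to 20 bases after it, written 5′ to 3′ on the strand of the gene. Capitals mark exact matches, on either strand, to the cyclic AMP response element or CRE (TGACGTCA), its core (TGACG), the AP-1 site (TGANTCA), the EGR site (GCGNGGGCG), the CArG box bound by serum response factor, and the TATA box (TATAAA). The core also matches within each full CRE. For EGR2 the most downstream of its annotated starts is shown. The windows of JUN, FOSB and ATF3 were searched but are not printed, and EGR3 has no window here. Every printed window holds the CRE core, which is not so for ATF3.
EGR2 (chr10:62816347-62816616, minus strand): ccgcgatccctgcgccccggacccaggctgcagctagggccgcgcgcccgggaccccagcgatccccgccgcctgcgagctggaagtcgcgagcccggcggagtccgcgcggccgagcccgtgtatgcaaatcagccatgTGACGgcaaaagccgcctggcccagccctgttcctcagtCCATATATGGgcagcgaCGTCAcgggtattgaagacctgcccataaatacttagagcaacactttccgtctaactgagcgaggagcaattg
EGR1 (chr5:138465229-138465498, plus strand): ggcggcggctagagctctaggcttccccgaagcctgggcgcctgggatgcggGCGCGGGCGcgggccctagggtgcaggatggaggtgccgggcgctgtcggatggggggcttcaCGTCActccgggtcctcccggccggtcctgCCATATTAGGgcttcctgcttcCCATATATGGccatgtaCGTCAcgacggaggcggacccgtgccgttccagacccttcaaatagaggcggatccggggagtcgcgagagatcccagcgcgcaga
FOS (chr14:75278578-75278847, plus strand): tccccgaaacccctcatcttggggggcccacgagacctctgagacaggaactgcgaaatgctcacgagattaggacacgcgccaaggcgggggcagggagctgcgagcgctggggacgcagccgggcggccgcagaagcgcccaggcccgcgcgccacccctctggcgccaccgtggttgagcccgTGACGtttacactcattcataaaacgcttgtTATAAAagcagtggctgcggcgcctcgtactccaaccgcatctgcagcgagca
JUNB (chr19:12791236-12791505, plus strand): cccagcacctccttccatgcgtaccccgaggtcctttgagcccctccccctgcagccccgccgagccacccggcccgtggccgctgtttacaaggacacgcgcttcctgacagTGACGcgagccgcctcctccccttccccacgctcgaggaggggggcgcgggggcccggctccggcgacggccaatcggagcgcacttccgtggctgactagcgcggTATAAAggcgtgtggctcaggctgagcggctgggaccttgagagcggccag
JUND (chr19:18281603-18281872, minus strand): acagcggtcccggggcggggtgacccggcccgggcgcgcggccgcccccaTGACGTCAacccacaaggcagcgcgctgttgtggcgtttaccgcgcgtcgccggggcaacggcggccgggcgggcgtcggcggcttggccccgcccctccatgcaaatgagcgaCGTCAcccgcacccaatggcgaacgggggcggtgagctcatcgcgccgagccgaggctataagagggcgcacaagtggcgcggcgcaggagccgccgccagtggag
FOSL2 (chr2:28392608-28392877, plus strand): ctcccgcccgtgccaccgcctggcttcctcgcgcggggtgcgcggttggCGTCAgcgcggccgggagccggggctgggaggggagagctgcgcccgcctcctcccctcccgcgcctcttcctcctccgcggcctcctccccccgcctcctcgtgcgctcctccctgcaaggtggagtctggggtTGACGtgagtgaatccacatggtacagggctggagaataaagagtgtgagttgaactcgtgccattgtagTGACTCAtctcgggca

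Over the whole windows, which run to 50 bases after the start, 8 of the 9 genes with a window held the CRE core. ATF3 did not hold it in either of its 2 windows, and any other start of ATF3 was not searched. The core was in 24.6% of all 35116 windows of the same length. Percents here are per window, while a gene counts with any of its windows, 3 for EGR2. The windows with the core in the 8 genes held 62% to 77% G and C, against a median of 58.7% over all windows. The CArG box was in EGR1 and EGR2, against 1.29% of all windows, and EGR1 held 2 matches, the nearer one beginning 83 bases before the start, while that of EGR2 began 71 bases before it. In EGR1 and EGR2 a CRE core followed the nearer CArG box, beginning 66 and 54 bases before the start. The EGR site was in EGR1 and in a second window of EGR2 (9.43% of all windows). JUND held the full CRE (1.85%) and FOSL2 the AP-1 site (7.71%). The TATA box lay 30 to 33 bases before the start in FOSB, JUNB and FOS and 230 bases before it in 1 window of ATF3 (11.5% of all windows). These matches describe letters in a window and not bound sites. Sites outside the windows were not searched, so a motif not listed for a gene may lie farther from its start.

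**Figure D1:**
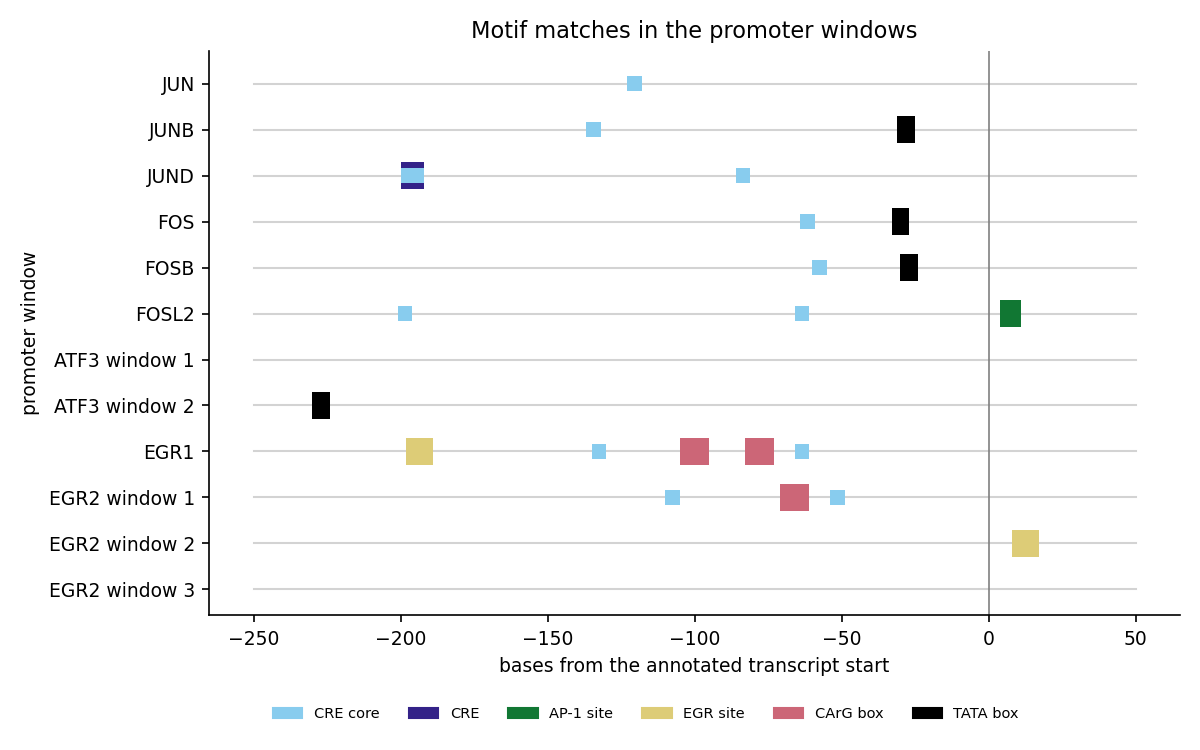
Each grey line is a RefSeq promoter window from 250 bases before to 50 bases after an annotated start (x axis, bases from the start), and coloured blocks are exact motif matches on either strand, with the CRE core drawn narrower. EGR1 and EGR2 window 1 carry CArG boxes followed by a CRE core, and the only full CRE is in JUND.

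Values are TPM, transcript abundance per length with an equal total in every library, so levels of different genes can be set side by side. TPM gives shares of the RNA in a library, and the number of reads behind a value is unknown. The libraries held 12357 to 12915 genes at 1 TPM or more. Plasma cell markers were abundant, with the joining chain gene JCHAIN at 6201 to 7208 TPM and the surface marker SDC1 at 2182 to 2403 TPM. The summed level of 6 B cell markers was 12.9 to 14.9 TPM, most of it FCER2, and that of 7 T and NK cell markers was 8.06 and 4.87 TPM with DMSO against 4.65 and 4.02 TPM with periplocin, with CD3D and CD2 listed at 0. The sums were 0.704 and 1.32 TPM with DMSO against 1.70 and 1.74 TPM with periplocin for 8 myeloid markers, with S100A8, S100A9, MPO and FCGR3A listed at 0, and at most 2.73 TPM in any library for 6 stromal markers, with LUM listed at 0. In bulk RNA, fewer cells of a type and less RNA per cell cannot be told apart.

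With periplocin, JUNB, JUND, FOS, ATF3 and EGR2 rose and no member fell. The JUN family was the abundant one, its summed level about doubled, and the shares of its members overlapped between the groups. The FOS and EGR genes were scarce, and they differed among themselves in how far they moved. Of the 10 genes, 8 reached 1 TPM in 2 or more libraries and were tested by limma on log2(TPM + 1), with p-values adjusted over all 12947 genes that passed this filter. Those 8 stood at 1 TPM or more in all 4 libraries. Of these, 5 were called higher at an adjusted p under 0.05 and 0 lower. Over all tested genes 10.4% were called higher and 18.9% lower. At an unadjusted p under 0.05 none of the 8 was lower either. Of the 6 tested members with a mean below 10 TPM, 3 were called higher, where 3.69% of all tested genes at such levels were, against 14.5% at 10 TPM or more. In 7 of the 8 tested members both periplocin libraries lay above both DMSO libraries, which was so for 25.4% of tested genes, and in 6 of the 8 the periplocin mean was at least 2 times the DMSO mean, which was so for 4.60%. FOSL2 was the exception to the first count, and FOSL2 and EGR1 were those to the second.

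**Figure D2:**
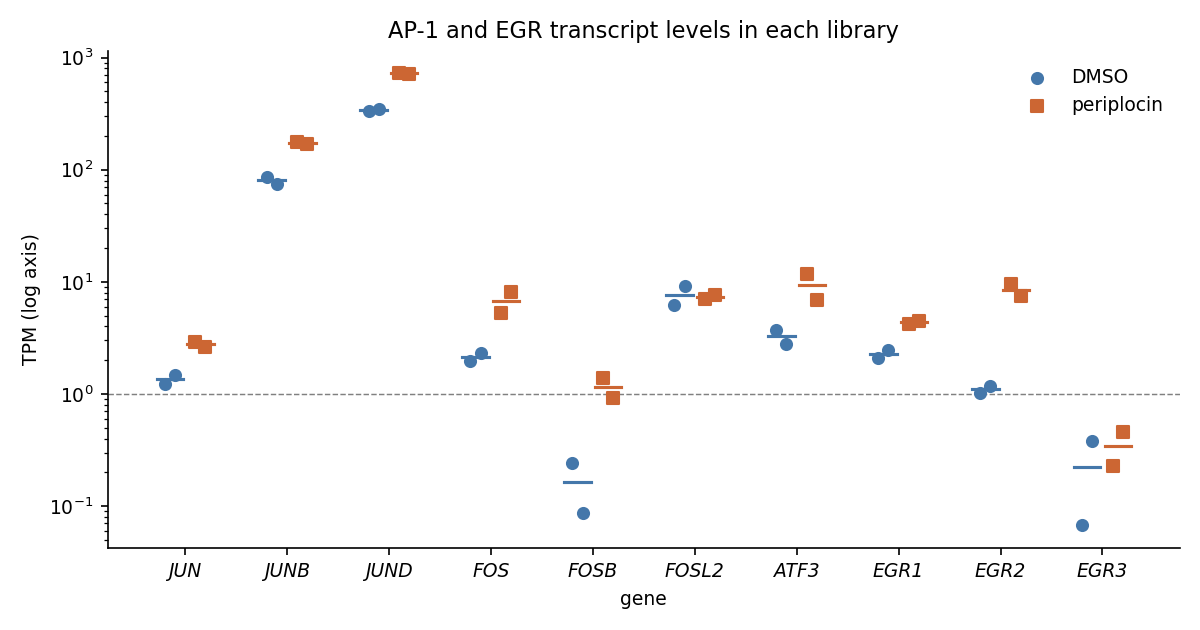
TPM on a log axis for the 10 genes, with DMSO libraries as circles, periplocin libraries as squares, horizontal bars for the group means of 2 libraries and a dashed line at 1 TPM. JUND and JUNB stand far above the other genes, and the groups overlap only for FOSL2 and EGR3.

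JUND encodes a JUN protein that is made in most resting cells (chromosome 19, 18279760 to 18281622 on GRCh38, a protein-coding gene). Its level was 331.8 and 349.6 TPM in the DMSO libraries and 722.8 and 718.8 TPM in the periplocin libraries. The periplocin values lay close together and above both DMSO values. The group means were 341 ± 12.6 and 721 ± 2.78 TPM (SD, n = 2), a ratio of 2.12, and the log2 fold change was 1.08 (standard error 0.07, limma adjusted p = 0.00210).

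JUNB encodes a JUN protein that is itself switched on by signals (chromosome 19, 12791496 to 12793315). It stood at 85.7 and 75.1 TPM with DMSO and at 175.1 and 168.7 TPM with periplocin. Its groups did not overlap, and its fold change was close to that of JUND: the ratio of means was 2.14 and the log2 fold change 1.09 (standard error 0.10, limma adjusted p = 0.00374). Exons of JUNB overlap HOOK2 on the other strand. The sources used here do not give strand use, and HOOK2 reached at most 12.3 TPM.

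JUN, the gene for c-Jun, was the scarce member of its family (chromosome 1, 58780788 to 58784327). It stood at 1.23 and 1.49 TPM with DMSO and at 2.92 and 2.65 TPM with periplocin. The groups did not overlap and the ratio of means was 2.05, like that of JUNB and JUND, but JUN did not pass (log2 fold change 0.68, 95% interval 0.04 to 1.33, limma adjusted p = 0.102). It passed with quantile normalization (limma adjusted p = 0.0401) and without the trend of spread on level (limma adjusted p = 0.0365).

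FOS, the gene for c-Fos, which binds DNA only as a partner of a JUN protein, was scarce in both groups (chromosome 14, 75278774 to 75282230). It stood at 1.96 and 2.33 TPM with DMSO and at 5.26 and 8.13 TPM with periplocin. Both periplocin values were higher, though they were farther apart than those of JUND. The ratio of means was 3.12, and the log2 fold change was 1.27 (standard error 0.27, limma adjusted p = 0.0208). The call was lost without periplocin replicate 2 (limma adjusted p = 0.0963) and with no filter on low values (limma adjusted p = 0.0897).

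FOSB encodes a close relative of c-Fos (chromosome 19, 45467995 to 45475179). It stood at 0.244 and 0.0864 TPM with DMSO and at 1.38 and 0.911 TPM with periplocin, too low for the test. The groups did not overlap. With no filter on low values its log2 fold change was 0.87 and did not pass (limma adjusted p = 0.0741). It shares its region, but no exon, with ERCC1 on the other strand.

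FOSL2 encodes Fra-2, a FOS protein without the strong activating region of c-Fos (chromosome 2, 28392448 to 28417312). It stood at 6.15 and 9.09 TPM with DMSO and at 6.99 and 7.57 TPM with periplocin. The periplocin values lay between the DMSO values. The log2 fold change was -0.04 with a 95% interval of -0.61 to 0.53 (limma adjusted p = 0.915), and its sign turned with size factors (0.09), median centring (0.13) and quantile normalization (0.24).

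ATF3, a stress-induced leucine zipper factor that pairs with JUN proteins, lies on chromosome 1 (212565334 to 212620777). It stood at 3.72 and 2.81 TPM with DMSO and at 11.8 and 6.84 TPM with periplocin. Both periplocin values were higher, but they were far apart, with the first well above the second. The ratio of means was 2.85 and the log2 fold change 1.24 (standard error 0.30, limma adjusted p = 0.0280). Without periplocin replicate 1 the log2 fold change was 0.89 and the call was lost (limma adjusted p = 0.111), as it was with no filter on low values (limma adjusted p = 0.114) and without the trend (limma adjusted p = 0.0512).

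EGR2 encodes a zinc finger factor that in lymphocytes follows antigen receptor signals (chromosome 10, 62811996 to 62919900). It stood at 1.02 and 1.17 TPM with DMSO and at 9.53 and 7.47 TPM with periplocin. It went from just above the filter to the most abundant of the 3 EGR genes. The group means were 1.10 ± 0.105 and 8.50 ± 1.46 TPM (SD, n = 2), a ratio of 7.74, and the log2 fold change of 2.17 (standard error 0.25, limma adjusted p = 0.00448) was the 21st highest of all tested genes. With a pseudocount of 0.1 in place of 1, which compresses low values less, the log2 fold change was 2.84 (limma adjusted p = 0.00591).

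EGR1, the founding member of the family (chromosome 5, 138465490 to 138469315), stood at 2.10 and 2.47 TPM with DMSO and at 4.18 and 4.50 TPM with periplocin. The groups did not overlap, and the ratio of means was 1.90. EGR1 did not pass as deposited (log2 fold change 0.70, 95% interval 0.12 to 1.28, limma adjusted p = 0.0708). It passed with size factors (limma adjusted p = 0.0470), median centring (0.0385) and quantile normalization (0.0263), and without the trend (0.0342).

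EGR3, a related factor, was not tested. It stood at 0.0675 and 0.379 TPM with DMSO and at 0.230 and 0.458 TPM with periplocin, and the groups overlapped. With no filter its log2 fold change was 0.14 (limma adjusted p = 0.656). Exons of EGR3 overlap AC055854.1 on the other strand, which has no row among the deposited values.

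**Figure D3:**
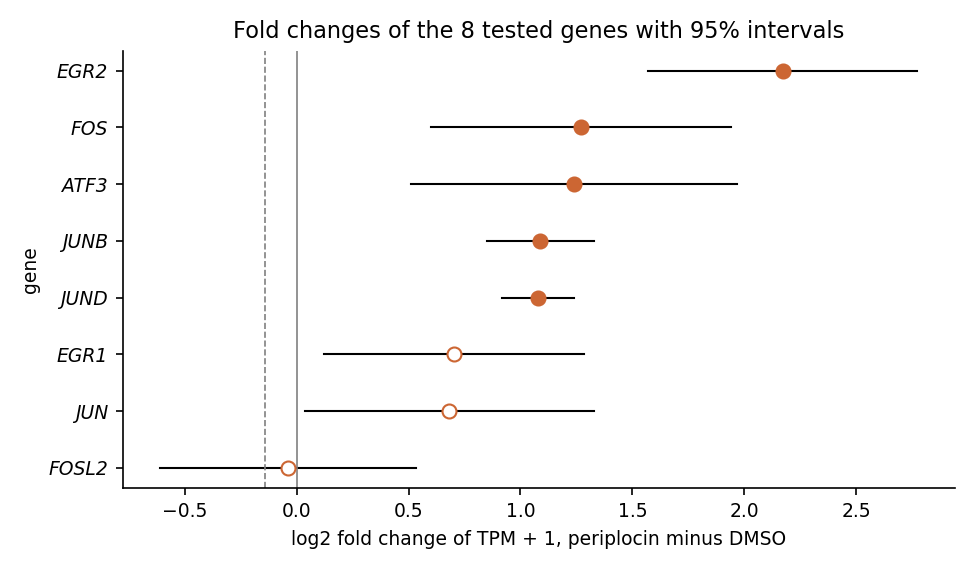
Log2 fold changes on the log2(TPM + 1) scale with limma's 95% intervals for the 8 tested genes, filled where the adjusted p was under 0.05. The dashed line is the median of all tested genes at -0.14. EGR2 stands apart at 2.17, and the interval of FOSL2 alone spans 0.

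With either DMSO library left out no gene of the table passed in the limma fit, which then takes the lone DMSO library to vary like the periplocin libraries (at an unadjusted p under 0.05 there were 3925 genes without DMSO replicate 1 and 4156 without DMSO replicate 2). The log2 fold changes of the 5 called members then ran from 1.00 for JUNB to 2.22 for EGR2. With either periplocin library left out JUNB, JUND and EGR2 still passed.

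The JUN family summed to 419 and 426 TPM with DMSO and to 901 and 890 TPM with periplocin, a ratio of means of 2.12. JUND made up 80.6% ± 1.98 of this sum with DMSO and 80.5% ± 0.367 with periplocin (SD, n = 2), JUNB 19.0% ± 2.02 and 19.2% ± 0.348, and JUN 0.322% ± 0.0399 and 0.311% ± 0.0190. The shares in the groups overlapped for each of the 3 genes.

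The FOS family summed to 8.35 and 11.5 TPM with DMSO and to 13.6 and 16.6 TPM with periplocin. FOSL2 made up 76.3% ± 3.82 of it with DMSO and 48.4% ± 4.03 with periplocin (SD, n = 2). The share of FOS was 21.8% ± 2.28 and 43.8% ± 7.29, and that of FOSB 1.84% ± 1.54 and 7.79% ± 3.26. The groups did not overlap in any of these shares. For every 100 TPM of JUN family transcripts there were 1.99 and 2.70 TPM of FOS family transcripts with DMSO and 1.51 and 1.87 TPM with periplocin, so by transcript level FOS partners were far fewer than JUN partners in every library.

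The EGR family summed to 3.19 and 4.02 TPM with DMSO and to 13.9 and 12.4 TPM with periplocin, a ratio of means of 3.66. EGR1 made up 63.6% ± 3.09 of the sum with DMSO and EGR2 30.6% ± 2.07, and with periplocin the order turned to 33.1% ± 4.41 and 64.2% ± 5.85 (SD, n = 2). The groups did not overlap in either share. The sums and shares are given as descriptions with no p, since 2 libraries against 2 cannot give an exact two-sided permutation p below 0.333.

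**Figure D4:**
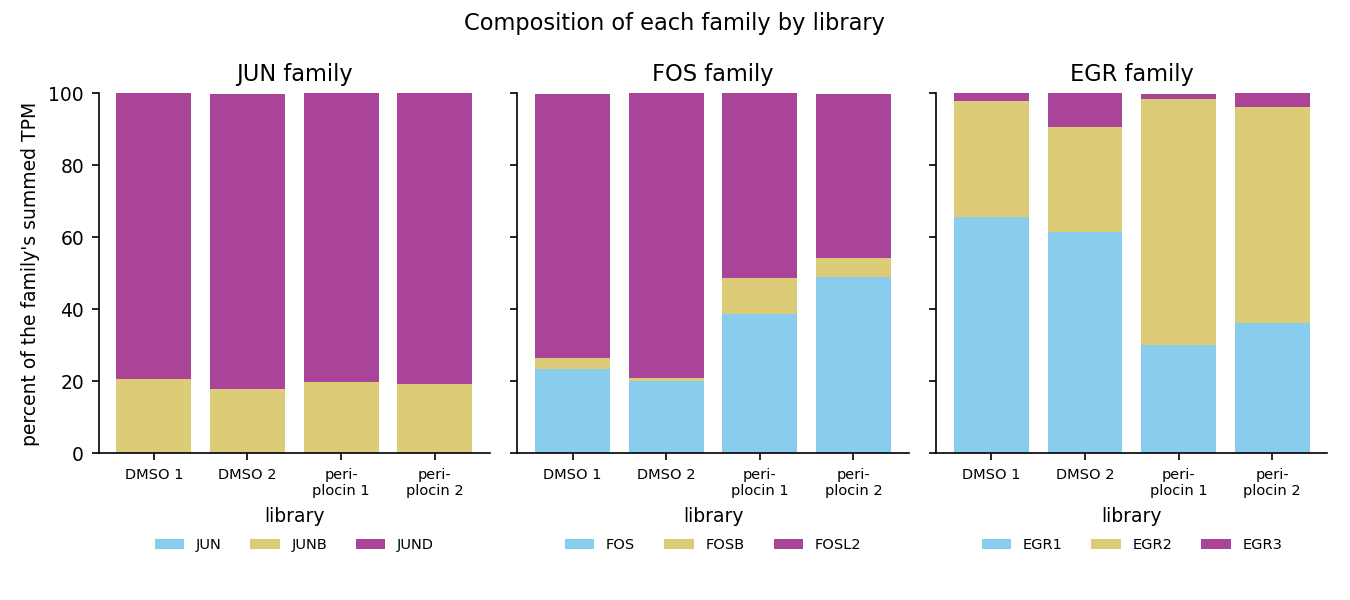
Stacked bars give the percent of each family's summed TPM that came from each gene in each of the 4 libraries. The JUN panel, in which JUN itself is too scarce to see, differs little between the groups. With periplocin the shares of FOSL2 and EGR1 are lower and those of FOS and EGR2 higher. A share can fall without a fall in the level of the gene.

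Of the other leucine zipper genes that join AP-1 or its small MAF relatives, 7 of 12 were tested, 3 rose and 1 fell. Their median log2 fold change was 0.38 against -0.14 over all tested genes, of which 10.4% were higher and 18.9% lower. MAFF (7.30 and 7.79 TPM with DMSO, 20.5 and 18.4 with periplocin; log2 fold change 1.26) and MAFG (1.15), which lack an activating region, rose, as did ATF2 (0.71), a partner of c-Jun. BATF, a partner of JUN proteins in lymphocytes, fell from 28.5 and 23.4 TPM to 10.9 and 5.09 TPM (log2 fold change -1.65, limma adjusted p = 0.0163). MAFF, MAFG and BATF were still called with either periplocin library left out, and ATF2 was not (limma adjusted p = 0.0502 and 0.0633). With no filter BATF did not pass (limma adjusted p = 0.0833). FOSL1, the remaining FOS gene, stood below 0.31 TPM in each library and BATF2 was listed at 0.

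NAB2, which binds EGR proteins and represses their targets and is itself an EGR target, rose from 7.22 and 4.88 TPM with DMSO to 21.1 and 17.1 TPM with periplocin. Its log2 fold change was 1.53 (standard error 0.23, limma adjusted p = 0.00778), and 1.38 without periplocin replicate 1, where it did not pass (limma adjusted p = 0.0504). Its relative NAB1 did not pass (-0.14). EGR4 and WT1, which binds similar sites, were listed at 0.

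Of 17 factors that act on the promoters of immediate early genes, 9 rose and 0 fell (median log2 fold change 0.40). As deposited, 10.4% of all tested genes were called higher and 18.9% lower. With median-of-ratios size factors, which scale each library as a whole, 11 rose and 0 fell, where 15.5% of all tested genes were called higher and 13.5% lower. At an unadjusted p under 0.05, CREM was lower (-0.365). CREBBP, the coactivator that CREB recruits, rose from 20.1 and 20.7 TPM to 41.3 and 45.9 TPM (1.06), ATF1, a close relative of CREB, rose by 1.00, ELK4, a partner of serum response factor, by 0.98 and the CREB coactivator CRTC2 by 0.67. ELK4 was not called without periplocin replicate 2 (limma adjusted p = 0.0668). SRF, the serum response factor gene, stood at 19.4 and 18.7 TPM with DMSO and at 24.9 and 23.1 TPM with periplocin and did not pass (log2 fold change 0.32).

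Of 23 tested genes for MAP kinases and the kinases around them, 5 rose and 3 fell (median -0.09), and with size factors 5 rose and 2 fell. Among all tested genes 10.4% were called higher and 18.9% lower as deposited. RPS6KA5, a kinase of CREB and histone H3, rose by 1.18. MAP2K6, an activator of p38, fell from 4.58 and 3.99 TPM to 0.465 and 0.415 TPM (-1.87), and MAPKAPK3, a kinase downstream of p38, fell by 0.79. RPS6KA5 was not called without periplocin replicate 2 (limma adjusted p = 0.0865), and MAPKAPK3 was not with either periplocin library left out.

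Of 21 other immediate early genes, 12 were tested, 7 rose and 2 fell (median 0.54), and IER3, CCN2, NPAS4 and RHOB were listed at 0. The shares over all tested genes were 10.4% higher and 18.9% lower. At an unadjusted p under 0.05, NR4A1 was also lower (-0.70), though not called (limma adjusted p = 0.0685). GADD45B, a stress protein, rose by 1.49, KLF6, a zinc finger factor, by 1.14 and IER5, a regulator of heat shock factor, by 1.06. The kinase gene SIK1 fell by 1.11, a call that was lost with either periplocin library left out and with quantile normalization (limma adjusted p = 0.0677). ZFP36, an immediate early gene whose protein speeds the decay of AU-rich mRNAs, fell from 374 and 334 TPM to 201 and 163 TPM (-0.96).

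ZFP36 also stands in a list of 10 RNA-binding proteins that act on unstable mRNAs. Of these, 3 rose and 1 fell (median 0.24), where 10.4% of all tested genes were higher and 18.9% lower. With size factors the counts were 5 and 1. ZFP36L2, a relative of ZFP36, rose by 0.50 and TIAL1, which binds U-rich RNA, by 0.43. Neither was called without periplocin replicate 2, and ZFP36L2 was not called without periplocin replicate 1.

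Of 7 genes for ubiquitin ligases of JUN proteins, 1 rose and 2 fell (median -0.02), and with size factors 2 rose and 1 fell. For so few genes these counts lie near the shares of all tested genes (10.4% higher and 18.9% lower). ITCH, a ligase of JUN and JUNB, rose by 0.64, DET1, an adaptor that works with COP1, fell from 2.00 and 1.63 TPM to 0.273 and 0.260 TPM (-1.15), and CUL4A fell by 0.36. None of the 3 was called with either periplocin library left out. With size factors CUL4A stood at -0.21 and was not called (limma adjusted p = 0.132), and with median centring neither CUL4A (0.159) nor DET1 (0.0591) was. DET1 was not called with quantile normalization either (limma adjusted p = 0.0979).

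Of 23 genes long described as AP-1 or EGR1 targets, 22 were in the table and 12 tested, 1 rose and 2 fell, shares near those of all tested genes (10.4% higher and 18.9% lower). The counts with size factors were 2 and 1. The median log2 fold change as deposited was -0.12, near that of all tested genes. CCND1, the cyclin D1 gene, fell from 27.1 and 36.8 TPM to 11.3 and 10.4 TPM (-1.46). TGFB1, a cytokine, rose by 0.28 and HMOX1, a haem-degrading enzyme, fell by 0.67, and neither was called with either periplocin library left out. HMOX1 was not called with size factors either (limma adjusted p = 0.0822). The matrix protease genes MMP1 and MMP3, the protease gene PLAU, the cytokine gene IL6 and the growth factor gene PDGFB were listed at 0 in all 4 libraries.

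**Figure D5:**
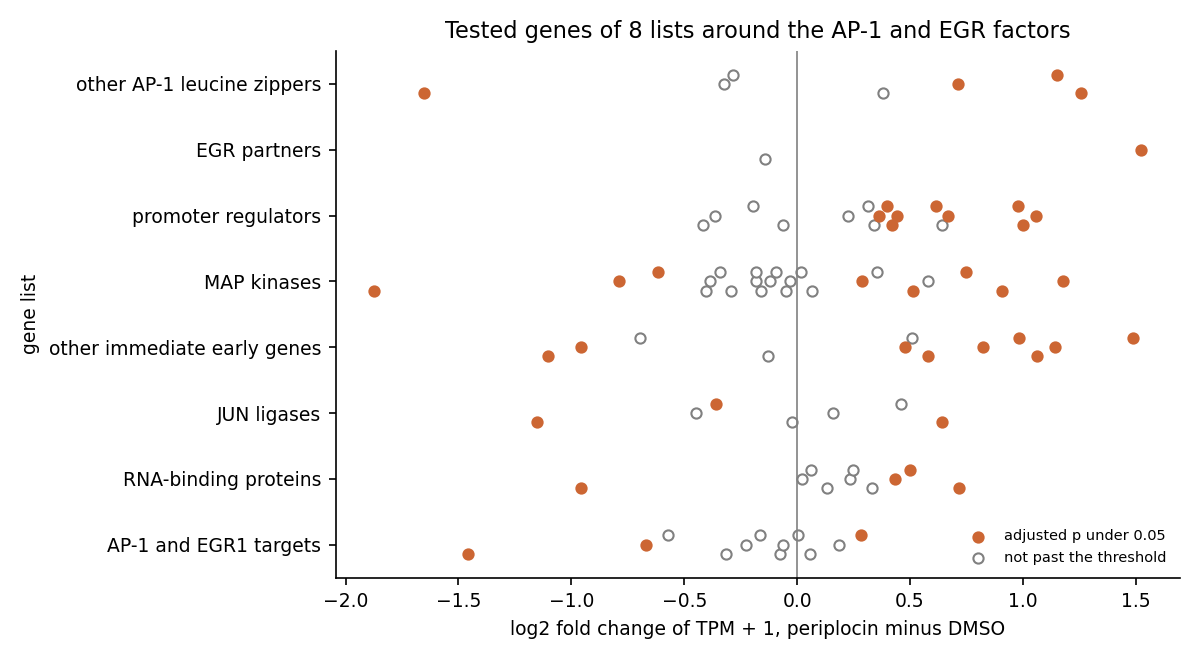
Each point is a tested gene of 1 of 8 lists, placed by its log2 fold change on the log2(TPM + 1) scale and filled where the limma adjusted p was under 0.05. The promoter regulators hold filled points on the right side alone, and the AP-1 and EGR1 targets lie mostly near 0.

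The 3 genes whose pattern over the 4 libraries was nearest to that of EGR2, by the Euclidean distance between log2(TPM + 1) values taken from each gene's DMSO mean, were TNFSF9 (distance 0.143), BBC3 (0.194) and BLVRBP1 (0.289). TNFSF9, a ligand of the TNF family, stood at 44.8 and 47.3 TPM with DMSO and at 238 and 208 TPM with periplocin. BBC3, the gene for the cell death protein PUMA, stood at 12.4 and 11.3 and at 62.4 and 54.5 TPM. BLVRBP1 is listed at 0 in both DMSO libraries and passed the filter through the periplocin libraries alone (3.78 and 3.87 TPM). The size of its log2 fold change is therefore set largely by the pseudocount. By log2 fold change BLVRBP1, TNFSF9 and BBC3 ranked 17, 18 and 19 from the top and EGR2 ranked 21. The nearness in pattern thus largely restates the size of the change. The likeness rests on 4 libraries and on the pseudocount of 1, which compresses EGR2 more than TNFSF9 or BBC3. The ratio of means was 7.7 for EGR2, 4.8 for TNFSF9 and 4.9 for BBC3. With a pseudocount of 0.1 the log2 fold changes lay farther apart. They were 2.84 for EGR2, 2.27 for TNFSF9, 2.29 for BBC3 and 5.30 for BLVRBP1.

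Of the 6 tested markers of B, T, NK, myeloid and stromal cells, NKG7 alone was called, as lower (-1.54, limma adjusted p = 0.0465), and it was not called with size factors. Of 9 plasma cell markers, SLAMF7 rose (1.59) and 4 fell, among them PRDM1 (-0.98), IRF4 (-0.60) and XBP1 (-0.40). Over all tested genes 10.4% were called higher and 18.9% lower. The part of these markers in the results was not tested. With size factors 1 rose and 2 fell, where 15.5% of all tested genes were called higher and 13.5% lower. XBP1 was not called with size factors (limma adjusted p = 0.102) or with either periplocin library left out. PRDM1 and IRF4 stood at 57.2 ± 2.64 and 129 ± 4.58 TPM with DMSO and at 28.6 ± 1.23 and 85.0 ± 3.96 TPM with periplocin (SD, n = 2).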

How the data were processed

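The authors deposited 1 table of TPM values for the 4 libraries, from paired-end reads of total RNA, per the labels' protocols. The submitters' processing notes name GRCh38 and DESeq2 without saying what each was used for. The sources used here do not give the aligner, the quantifier, the annotation or strand use. TPM keeps no depth, so no counting interval could be given. Columns headed PP were taken as the periplocin samples. A current symbol was found for 34436 of 37247 rows, and 16015 rows were listed at 0 in every library, which can be a failed estimate.

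Rows reaching 1 TPM in 2 or more libraries (12947) were compared as log2(TPM + 1) with limma-trend (limma 3.58.1, R 4.3.3). Tests were two-sided, p-values were adjusted by Benjamini-Hochberg over all these rows, and the threshold was 0.05. Changes of low genes are understated on this scale. With 2 residual degrees of freedom the test leans on the spread of other genes. Tested on simulated data with normal noise of the fitted spread, it found large changes well and missed most small ones. The share of false calls was on average somewhat above the threshold. Far fewer genes were changed in the simulation than were called here, and none of the scarce ones. Its rates therefore need not hold for these data. How well the test finds changes in genes as scarce as JUN, FOS, ATF3, EGR1 and EGR2 were with DMSO was not tested. The median log2 fold change over tested genes was -0.14 as deposited, -0.01 with median-of-ratios size factors and 0.02 with median centring, so those scalings shift each gene upward.

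The members, the 13 other gene lists and the tests were chosen with earlier results of these data known. All members are named. From each list the rule took up to 4 called genes by size of change, or, with none called, the 2 highest in level. A few genes that the rule took are not reported here. Other list genes were named after their values were seen. The rule for nearest patterns took 3 genes with ordinary symbols. Gene positions are from GENCODE 29 on GRCh38 and promoter windows from RefSeq on GRCh38.p14. Tables and plots were made with Python 3.11.15, pandas 2.3.3, numpy 2.4.6 and matplotlib 3.10.9.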

Additional observations from a re-analysis of the deposited data

How the results depend on the processing

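JUNB, JUND and EGR2 were called higher under every alternative except those that leave out a DMSO library, and no alternative called a member lower. The number of members called higher, 5 as deposited, was 5 to 7 under the other scalings, pseudocounts, the filter at 5 TPM and the fit without the trend, 3 with no filter on low values, 4 with either periplocin library left out and 0 with either DMSO library left out. JUN and EGR1 have no value at the 5 TPM filter. Over all genes, where 1352 were higher and 2443 lower, the counts were 2117 and 1553 with median centring and 613 and 1026 with no filter, and 876 were higher without the trend. Leaving out 1 library gave 0 to 522 higher and 0 to 1142 lower. Of the 40 genes taken by the naming rule and called as deposited, 13 were not called without periplocin replicate 1, 16 without periplocin replicate 2, 14 with no filter and 7 without the trend; the cause was not tested. The JUND share of the JUN family, lower by 0.14 percentage points with periplocin (difference -0.14), ran from -1.54 to 1.26 with 1 library left out and so has no settled direction (0.12 without periplocin replicate 1). The replicate numbers pair nothing in the labels, and the difference between replicates 1 and 2 correlated at 0.0324 between the groups across 12947 genes. With the replicate number as a block 5 members were called higher and 0 lower, as without it. The unknown depth limits most what can be said of FOSB and EGR3, at or below 1.38 TPM.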
